A study of Mus musculus with 6 samples.

Results

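The genes described here are 10 genes that carry a cell from G1 into S phase, namely the D-type cyclins Ccnd1, Ccnd2 and Ccnd3, the E-type cyclins Ccne1 and Ccne2, the kinases Cdk4, Cdk6 and Cdk2, and the activators Cdc25a and Skp2. They were chosen by name and with earlier results of these data known. The symbols are those that GENCODE M21 gives to the Ensembl gene IDs of the count tables. All 10 were found among the 55335 genes counted. RNA of cultured B16-BL6 mouse melanoma cells was sequenced in 3 scrambled control cultures (replicates 1, 2 and 3) and in 3 IFNγR1KO cultures (replicates 10, 11 and 12). Scrambled control cells, which the labels also call WT, carry Cas9 and a guide against GFP, and IFNγR1KO cells carry Cas9 and guides against exon 1 of Ifngr1, the ligand-binding chain of the IFN-γ receptor. Both were selected with puromycin, and no treatment with IFN-γ is named for these cultures. IFNγR1KO cells were grown as single-cell clones that did not raise PD-L1 after IFN-γ, and neither the labels nor the methods say which guide or clone was sequenced, so a difference of the clone and a difference of the knockout cannot be told apart. The replicates are parallel cultures, so the p-values measure the spread between cultures of a line.

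D-type cyclins are made in response to growth signals and activate CDK4 and CDK6, which begin to phosphorylate the retinoblastoma protein. Cyclin E with CDK2 completes this step, which frees E2F transcription factors to switch on genes of DNA replication, the E-type cyclins and Cdc25a among them. CDC25A removes the inhibitory phosphates from CDK2, and SKP2 is the subunit of the SCF ubiquitin ligase that marks the CDK inhibitor p27, the product of Cdkn1b, for degradation.

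Counts on genes ranged from 9402640 to 10579788 in scrambled control libraries and from 6698956 to 7409479 in IFNγR1KO libraries. Levels are given as CPM, for which counts were brought to a shared total over the tested genes with a TMM factor per library, and 1 count was worth 0.0966 to 0.109 CPM in scrambled control and 0.135 to 0.142 CPM in IFNγR1KO libraries. Scrambled control replicate 3 and IFNγR1KO replicate 12 stood farthest from the others of their groups, with a chi-square per degree of freedom of 20.4 and 22.7 for replicate 3 against 9.25 between replicates 1 and 2, and of 15.0 and 18.4 for replicate 12 against 2.62 between replicates 10 and 11. Ifngr1 averaged 15.9 ± 1.35 in control and 11.5 ± 0.0901 CPM in knockout cultures (SD, n = 3 each, log2 fold change -0.47, SE 0.16, edgeR adjusted p = 0.0729), and a count per gene does not show whether a transcript was edited. The 8 melanocyte markers were all expressed, with a summed level of 31772 to 34717 CPM in scrambled control and 27949 to 32885 CPM in IFNγR1KO libraries. Of the other cell types, 3 immune markers summed to at most 1.42 CPM with Cd3e at 0 counts, and 3 endothelial markers to at most 0.217 CPM with Cdh5 and Kdr at 0. The 5 fibroblast markers summed to 57.0 to 75.4 CPM in scrambled control and 129 to 133 CPM in IFNγR1KO libraries. Most of that sum was Col1a2, at 69.5, 54.6 and 52.5 CPM in scrambled control and 122, 124 and 125 CPM in IFNγR1KO libraries. It rose with a log2 fold change of 1.07 (edgeR adjusted p = 0.000476). Col1a1 also rose, from a mean of 1.33 to 5.20 CPM (log2 fold change 1.96, edgeR adjusted p = 0.00175). Pdgfra lay the other way without passing the test, at 4.13, 3.18 and 3.48 CPM in scrambled control and 2.42, 1.76 and 2.11 CPM in IFNγR1KO libraries (log2 fold change -0.77, edgeR adjusted p = 0.0866), while Lum was at 0 counts in every library and Dcn at 1 count or fewer.

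Of the 10 genes, 6 were lower in IFNγR1KO cells at an adjusted p under 0.05, namely Ccnd1, Ccnd3, Ccne1, Ccne2, Cdc25a and Skp2, and 4 made no call. All 10 passed the filter on low counts. Since the 10 genes were chosen with earlier results known, the shares over all genes are given for scale and are no test of the set. Over all 13642 genes tested, 15.3% were called in either direction and 7.62% were called lower (quasi-likelihood test of edgeR, adjusted by Benjamini-Hochberg). None of the 10 was called higher, beside 7.73% of all genes, whereas 1, Ccnd2, was above control at an unadjusted p under 0.05 in edgeR and was called higher by both DESeq2 and limma-voom. The median log2 fold change of the 10 genes was -0.71, beside -0.00 over all genes tested. With the added limit of a log2 fold change below -1, which the study used for its DEGs, 3 of the 10 were counted, Ccne2, Cdc25a and Skp2, beside 1.96% of all genes, and none passed the like limit above 1, beside 3.25%. For 7 of the 10 no library of a group lay within the range of the other group, beside 32.6% of all genes. Of these 7, 6 were lower in IFNγR1KO cells, beside 16.6% of all genes, and 1, Ccnd2, was higher, beside 16%. In RNA from whole cultures, fewer cells in a phase of the cycle and less RNA per cell cannot be told apart. Counts per library and the summed fibroblast markers, mostly Col1a2, also differed between the groups, and their part in these results was not tested.

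**Figure D1:**
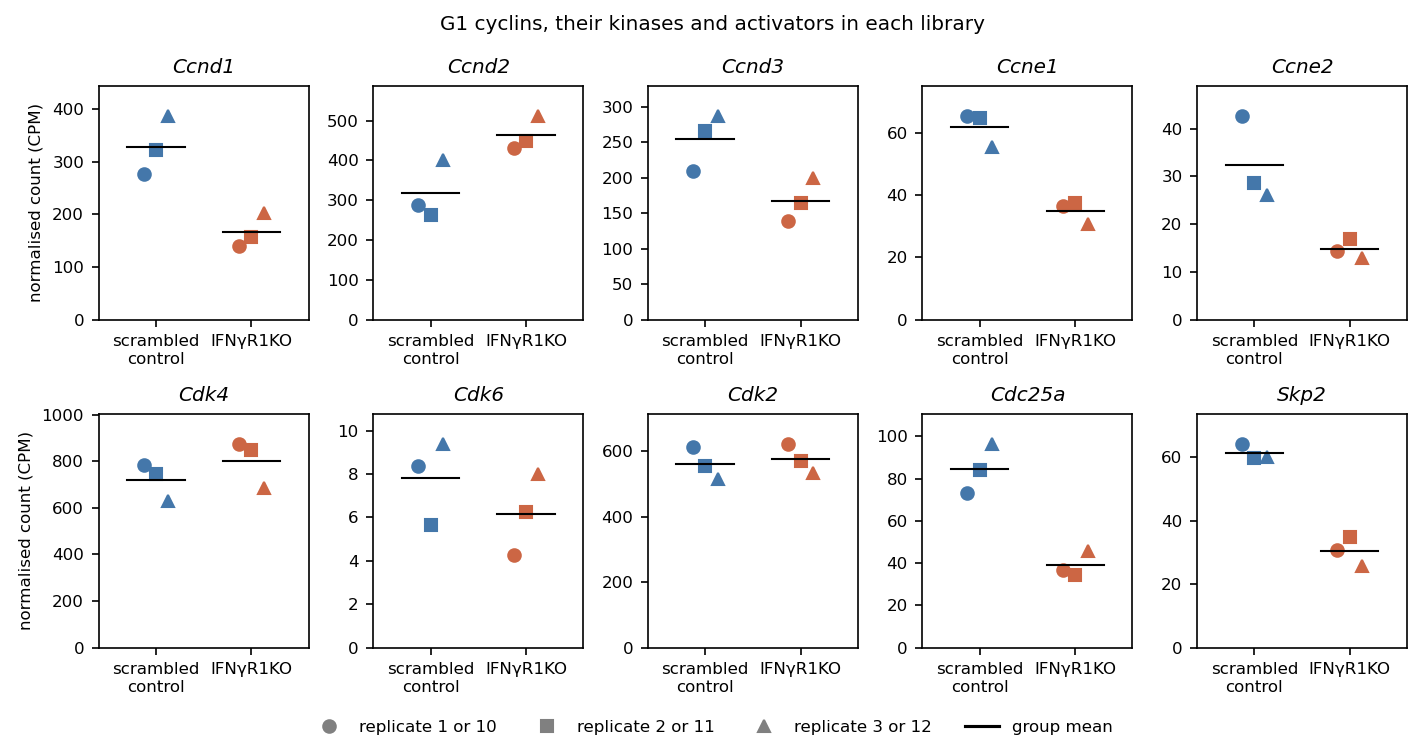
CPM of each of the 10 genes (vertical axes start at 0) in the 3 scrambled control and the 3 IFNγR1KO libraries, 1 point per library, with a horizontal line at the group mean and shapes that only name the libraries. Points of the groups are fully apart for Ccnd1, Ccnd2, Ccnd3, Ccne1, Ccne2, Cdc25a and Skp2, with IFNγR1KO above scrambled control for Ccnd2 only, and they overlap for Cdk4, Cdk6 and Cdk2.

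**Figure D2:**
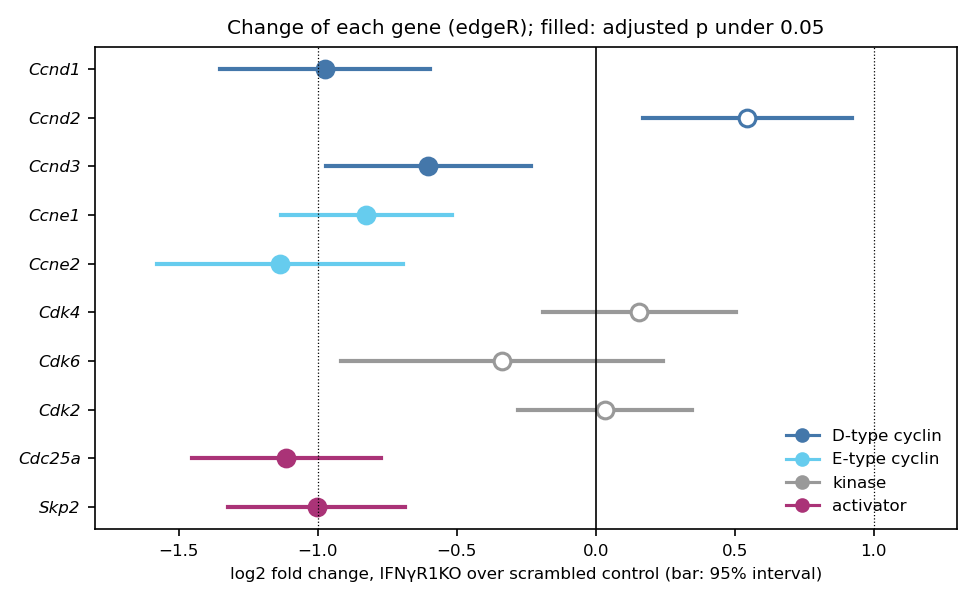
Log2 fold change of IFNγR1KO over scrambled control for each of the 10 genes, with its 95% interval from edgeR, filled where the adjusted p was under 0.05 and with dotted lines at the DEG limits of -1 and 1. The 6 genes called lower lie between -0.60 and -1.14, and the intervals of Cdk2, Cdk4 and Cdk6 cross 0, while that of Ccnd2 lies above it.

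The 3 D-type cyclins did not move together. Ccnd1 and Ccnd3 fell in IFNγR1KO cells, and Ccnd2 was higher in every IFNγR1KO library without passing the test. Ccnd1 (ENSMUSG00000070348.5, chr7:144929931-144939925 of GRCm38, minus strand) encodes cyclin D1. It had 277, 322 and 385 CPM in scrambled control replicates 1, 2 and 3 and 141, 157 and 203 CPM in IFNγR1KO replicates 10, 11 and 12. The lowest control library thus stood above the highest IFNγR1KO library. Its log2 fold change was -0.97 (SE 0.17, 95% interval -1.35 to -0.60, edgeR adjusted p = 0.00288), which left 50.9% of the control level. Of its exonic bases, 1100 (23.4%) also lie in exons of LTO1 on the opposite strand, and the strand setting of the counting is not given in the sources used here. LTO1, which takes part in ribosome biogenesis, had 119, 134 and 169 CPM in scrambled control and 60.0, 77.8 and 86.2 CPM in IFNγR1KO libraries (log2 fold change -0.92, SE 0.17, edgeR adjusted p = 0.00394). How the shared bases affect either value was not tested.

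Ccnd3 (ENSMUSG00000034165.16, chr17:47505051-47599691, plus strand) encodes cyclin D3. It had 210, 266 and 286 CPM in scrambled control and 138, 165 and 199 CPM in IFNγR1KO libraries. The groups came close to each other but did not overlap. The log2 fold change was -0.60 (SE 0.17, 95% interval -0.97 to -0.23, edgeR adjusted p = 0.0314). This call depended on single libraries, since the adjusted p was 0.116 without scrambled control replicate 2, 0.0660 without scrambled control replicate 3, 0.151 without IFNγR1KO replicate 10 and 0.136 without IFNγR1KO replicate 11. Without scrambled control replicate 3 and IFNγR1KO replicate 12 together, it was 0.00101. The gene shares 361 exonic bases (4.11%) with Bysl on the opposite strand, which had a log2 fold change of -0.30 (edgeR adjusted p = 0.242).

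Ccnd2 (ENSMUSG00000000184.12, chr6:127125162-127152193, minus strand) encodes cyclin D2. It had 289, 262 and 400 CPM in scrambled control and 431, 448 and 510 CPM in IFNγR1KO libraries. All IFNγR1KO libraries stood above all control libraries, and scrambled control replicate 3 was the nearest to them. The log2 fold change was 0.55 (SE 0.17, 95% interval 0.17 to 0.92), and the adjusted p of 0.0513 from edgeR missed the threshold of 0.05. It was 0.00629 without scrambled control replicate 3 and 0.196 without scrambled control replicate 2, with log2 fold changes of 0.75 and 0.42. The antisense gene Gm43126, which shares 372 of its exonic bases (3.95%), had a log2 fold change of 0.38 (edgeR adjusted p = 0.211), and 9330179D12Rik, which shares 368 (3.91%), was too rare to test.

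Because the D-type cyclins compete for the same kinases, their make-up was also compared within each library, where no scaling between libraries enters. Levels of different genes were set side by side as CPM per kilobase of exon. Ccnd1 made up 51.8%, 54.0% and 52.1% of the summed D-type level in scrambled control libraries and 32.7%, 33.5% and 35.9% in IFNγR1KO libraries. Ccnd2 made up 27.1%, 22.0% and 27.1% in scrambled control and 50.1%, 47.7% and 45.2% in IFNγR1KO libraries. Per kilobase, the main D-type transcript was thus Ccnd1 in every scrambled control library and Ccnd2 in every IFNγR1KO library. The share of Ccnd3 was 21.9% ± 1.77 (SD, n = 3) and 18.3% ± 0.941 (SD, n = 3), also without overlap. For each of these 3 shares the two-sided exact permutation test gave p = 0.1, raw and adjusted over the 3 shares, which is the smallest that 3 libraries against 3 allow. With counts not divided by length, Ccnd1 went from 36.5% to 20.8%, Ccnd2 from 35.1% to 58.3% and Ccnd3 from 28.4% to 20.9% (means of 3 libraries). On that scale Ccnd2 stood above Ccnd1 in scrambled control replicates 1 (37.2% against 35.7%) and 3 (37.3% against 36.0%). It stood below Ccnd1 in scrambled control replicate 2 (30.9% against 37.8%). The lead of Ccnd1 in every control library thus depends on the division by length, while Ccnd2 led in every IFNγR1KO library either way.

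The level of Ccnd1 per kilobase over that of Ccnd2 lay between 1.92 and 2.45 in scrambled control and between 0.653 and 0.795 in IFNγR1KO libraries, a difference of -1.54 on the log2 scale. The ratio of Ccnd2 to Ccnd3 lay between 0.919 and 1.30 in scrambled control and between 2.39 and 2.91 in IFNγR1KO libraries. For Ccnd1 over Ccnd3 the ranges were closer, 2.25 to 2.51 and 1.78 to 1.90. These 3 ratios, of 6 computed, did not overlap between groups (two-sided exact permutation p = 0.1 each, 0.2 adjusted over the 6 by Benjamini-Hochberg). Summed over the 3 genes, the D-type level was 113, 127 and 157 CPM per kilobase in scrambled control and 91.5, 99.7 and 120 CPM per kilobase in IFNγR1KO libraries. Unlike the shares, these sums overlapped between groups.

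**Figure D3:**
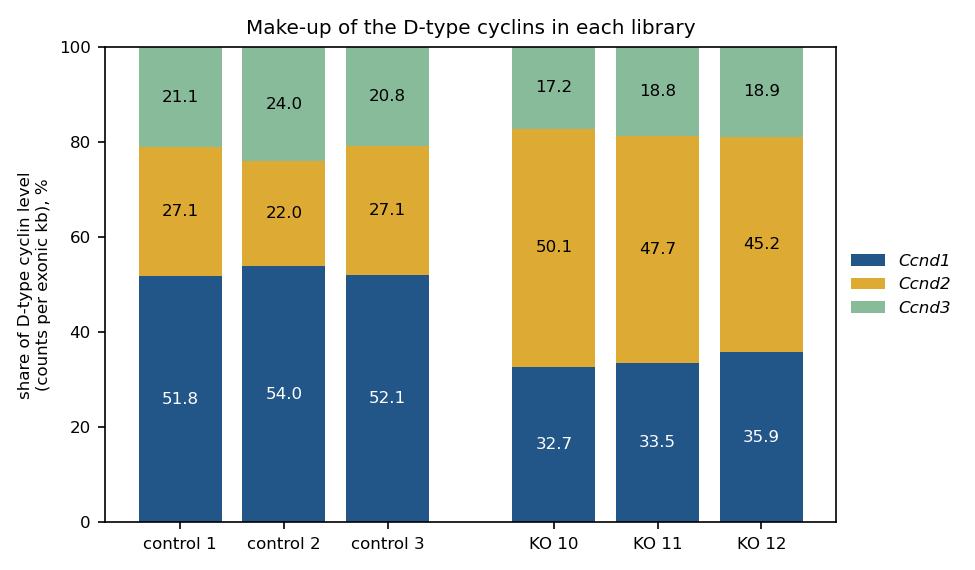
Share of Ccnd1, Ccnd2 and Ccnd3 in their summed level per kilobase of exon (percent, vertical axis) in each of the 6 libraries, as stacked bars that add up to 100. Ccnd1 holds 51.8% to 54.0% of the bar in scrambled control and 32.7% to 35.9% in IFNγR1KO libraries, and Ccnd2 goes from 22.0% to 27.1% up to 45.2% to 50.1%.

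Both E-type cyclins, the partners of CDK2 at the entry into S phase, fell. Ccne1 (ENSMUSG00000002068.16, chr7:38097984-38107534, minus strand) had 65.1, 64.7 and 55.5 CPM in scrambled control and 36.4, 37.5 and 30.6 CPM in IFNγR1KO libraries. Ccne2 (ENSMUSG00000028212.16, chr4:11191351-11204779, plus strand) had 42.6, 28.7 and 26.2 CPM in scrambled control and 14.3, 16.9 and 12.9 CPM in IFNγR1KO libraries. Neither gene overlapped between groups, and scrambled control replicate 1 stood apart from replicates 2 and 3 for Ccne2. The log2 fold change of Ccne1 was -0.82 (SE 0.14, 95% interval -1.13 to -0.52, edgeR adjusted p = 0.00228). That of Ccne2 was -1.14 (SE 0.20, 95% interval -1.58 to -0.69, edgeR adjusted p = 0.00288), and it was -0.90 without scrambled control replicate 1, above the limit of -1 but still called. Together the E-type cyclins went from 32.5 ± 4.16 to 17.3 ± 1.91 CPM per kilobase (SD, n = 3). Ccne1 over Ccne2 lay between 2.01 and 2.96 in scrambled control and between 2.91 and 3.33 in IFNγR1KO libraries, so the ratio overlapped between groups (two-sided exact permutation p = 0.2, 0.24 adjusted over the 6 ratios). Exons of Ints8 on the opposite strand cover 609 exonic bases of Ccne2 (17.4%), and Ints8 had a log2 fold change of -0.23 (edgeR adjusted p = 0.334). Ccne1 shares exonic bases with no other gene.

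The 3 kinases made no call in edgeR, none had an unadjusted p under 0.05, and neither DESeq2 nor limma-voom called any. Cdk4 (ENSMUSG00000006728.12, chr10:127063534-127067920, plus strand), the main partner of D-type cyclins in these cells by RNA level, had 784, 746 and 628 CPM in scrambled control and 873, 847 and 687 CPM in IFNγR1KO libraries. Cdk2 (ENSMUSG00000025358.16, chr10:128697939-128705031, minus strand), the partner of E-type cyclins, had 614, 556 and 516 CPM in scrambled control and 622, 569 and 535 CPM in IFNγR1KO libraries. The groups overlapped for both, and the lowest library of each group was scrambled control replicate 3 and IFNγR1KO replicate 12. The 95% interval of the log2 fold change was -0.19 to 0.50 around 0.16 for Cdk4 (edgeR adjusted p = 0.571) and -0.28 to 0.35 around 0.04 for Cdk2 (edgeR adjusted p = 0.906). Falls of the size seen for the E-type cyclins lay outside both intervals. Cdk6 (ENSMUSG00000040274.11, chr5:3341485-3531008, plus strand), the other D-type partner, was rare, with 77, 57 and 97 counts in scrambled control and 30, 46 and 57 counts in IFNγR1KO libraries. Its log2 fold change of -0.34 had a 95% interval from -0.92 to 0.24 (edgeR adjusted p = 0.452), so that at this depth a fall such as that of Ccnd1 lay just outside it and that of Ccnd3 within it. Per kilobase, Cdk4 stood 289 to 567 times above Cdk6 in scrambled control and 369 to 882 times in IFNγR1KO libraries (two-sided exact permutation p = 0.4, raw and adjusted over the 6 ratios). The ratio of Cdk2 to Cdk4 lay between 0.389 and 0.429 in scrambled control and between 0.351 and 0.407 in IFNγR1KO libraries (two-sided exact permutation p = 0.2, 0.24 adjusted over the 6 ratios). The exon lengths used were 3249 bases for Cdk4 and 13989 for Cdk6, which widens their distance per kilobase. Without division by length, the means of Cdk4 and Cdk6 were 719 and 7.80 CPM in scrambled control and 802 and 6.17 CPM in IFNγR1KO libraries.

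Cdk2 and Cdk4 both lie on chromosome 10, and both have a neighbour on the opposite strand. Cdk2 shares 34 exonic bases (0.547%) with Pmel, a pigment cell gene that is far more abundant, at 7421 ± 488 against 6614 ± 211 CPM (SD, n = 3 each, log2 fold change -0.17, edgeR adjusted p = 0.572). Cdk4 shares 641 exonic bases (19.7%) with Tspan31, which had a log2 fold change of 0.13 (edgeR adjusted p = 0.626). How reads on the shared bases were counted depends on the strand setting, which is not given.

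The activators fell together. Cdc25a (ENSMUSG00000032477.14, chr9:109875579-109893895, plus strand), the phosphatase that opens CDK2 for activity, had 73.1, 84.0 and 96.2 CPM in scrambled control and 36.9, 34.4 and 45.8 CPM in IFNγR1KO libraries. Skp2 (ENSMUSG00000054115.11, chr15:9111985-9155425, minus strand) had 64.0, 59.6 and 60.0 CPM in scrambled control and 30.8, 35.0 and 25.7 CPM in IFNγR1KO libraries. For both genes every IFNγR1KO library stood well below every control library, and the 3 control values of Skp2 were closer together than those of any other gene of the set, with a highest over lowest of 1.07. The log2 fold change was -1.11 for Cdc25a (SE 0.16, 95% interval -1.45 to -0.77, edgeR adjusted p = 0.000744) and -1.004 for Skp2 (SE 0.15, 95% interval -1.32 to -0.69, edgeR adjusted p = 0.000866). These were the smallest adjusted p-values of the 10 genes. Neither gene shares exonic bases with another gene. Skp2 lies at the limit of -1, with -0.90 without IFNγR1KO replicate 12 and -0.97 without scrambled control replicate 1, and it stayed called in both. It was also above that limit with upper-quartile factors (-0.97), total counts with no factor (-0.96) and a minimum count of 50 (-0.98). Without scrambled control replicate 3 and IFNγR1KO replicate 12 together it was -0.91. Skp2 stayed called in these too.

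Sequences upstream of the start sites are shown for 3 genes that hold matches to motifs of cell cycle and growth regulators, since some genes of the set moved together and others did not. The RefSeq promoters used here (GRCm38.p6) covered 7 of the 10 genes, with 9 windows in all, and Ccnd1, Ccnd2 and Ccne2 were not searched. The 250 bases before each start were searched on both strands. Letters of the AP-1, CRE, CCAAT and GC-box motifs were searched as well and are not marked in the sequences. Of these, CCAAT was found in 33.8% and the GC-box GGGCGG in 32.7% of promoters. Within the set, CCAAT was found in Ccnd3, Cdk2, Cdc25a and Skp2, and the GC-box in these and in Ccne1 and Cdk4. The E2F motif, searched as TTTCCCGC, TTTCGCGC, TTTGCCGC and TTTGGCGC, was found in 1.86% of 32851 promoters, and within the set in Cdc25a, which fell, and in Cdk2, which made no call. The E-box CACGTG, which MYC and MITF can bind, was found in 6.02% of promoters, and within the set in Cdk4 with 4 matches and in Cdk6 with 1. As many as 4 E-boxes were found in 7 of all promoters (0.0213%). These shares are over promoters of any base composition. The windows of Cdc25a, Cdk4, Cdk6 and Cdk2 held 56.4%, 64.4%, 66% and 63.2% G or C, beside a median of 52.4% over all promoters. A match is a run of letters and not a measured binding site. Capitals mark the E2F match in the first and last of the following sequences and the E-boxes in the second, all written 5′ to 3′ on the strand of the gene.
Cdc25a, chr9:109875329-109875578, plus strand: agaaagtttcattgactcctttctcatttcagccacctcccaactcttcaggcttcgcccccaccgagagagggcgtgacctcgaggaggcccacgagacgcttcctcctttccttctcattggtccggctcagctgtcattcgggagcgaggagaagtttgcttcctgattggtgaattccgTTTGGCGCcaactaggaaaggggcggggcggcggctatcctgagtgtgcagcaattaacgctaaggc
Cdk4, chr10:127063285-127063534, plus strand: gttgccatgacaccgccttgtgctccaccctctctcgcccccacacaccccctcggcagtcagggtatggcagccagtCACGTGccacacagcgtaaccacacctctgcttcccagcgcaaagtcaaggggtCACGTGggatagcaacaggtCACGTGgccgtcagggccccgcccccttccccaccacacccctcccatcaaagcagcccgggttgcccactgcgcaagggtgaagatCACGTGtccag
Cdk2, chr10:128705173-128705202, minus strand: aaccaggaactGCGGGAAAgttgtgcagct

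The Cdc25a match lies 67 to 60 bases before the start, and the Cdk2 match, which reads TTTCCCGC on the other strand, 140 to 133 bases before it. Of the E-boxes of Cdk4, the nearest lies 11 to 6 bases and the farthest 172 to 167 bases before the start. No window of Ccnd3, Ccne1 or Skp2 holds these E2F or E-box letters.

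Ordered by level per kilobase, Cdk4 came first and Cdk6 last in both groups. In scrambled control cells, Cdk4 had 221 ± 25.0, Cdk2 90.3 ± 7.87, Ccnd1 69.7 ± 11.6, Ccnd2 33.7 ± 7.75 and Ccnd3 29.0 ± 4.52 CPM per kilobase (SD, n = 3). Ccne1 followed at 23.2 ± 2.05, Cdc25a at 10.5 ± 1.45, Ccne2 at 9.29 ± 2.52, Skp2 at 7.77 ± 0.312 and Cdk6 at 0.558 ± 0.137 CPM per kilobase (SD, n = 3). Of these neighbours, Ccnd2 and Ccnd3, Ccnd3 and Ccne1, Cdc25a and Ccne2, and Ccne2 and Skp2 overlapped in their ranges over libraries. In IFNγR1KO cells the order differed in 1 place, with Ccnd2 at 49.2 ± 4.44 before Ccnd1 at 35.4 ± 6.83 CPM per kilobase (SD, n = 3), and these ranges did not overlap. The kinases Cdk4 and Cdk2 stood above 98.1% and 95.3% of the tested genes in scrambled control and above 98.4% and 95.6% in IFNγR1KO cells. Ccnd1 went from the 93.6th to the 87.7th percentile of level, and Ccnd2 from the 86.6th to the 91.4th.

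**Figure D4:**
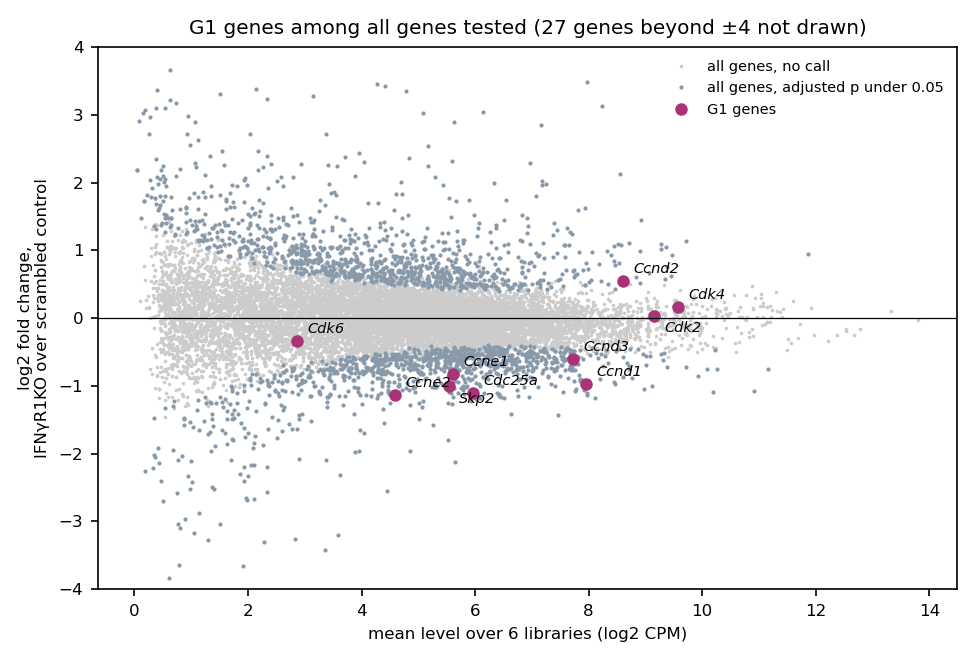
Log2 fold change of IFNγR1KO over scrambled control (vertical axis) against the mean log2 CPM (horizontal axis) for the genes tested, apart from 27 that lie beyond 4 in either direction, with the 10 genes marked and named. The genes called lower lie below the centre of the cloud over a range of mean levels, while Cdk2 and Cdk4, among the most abundant of the set, lie near 0.

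The libraries that stood apart were also placed within their groups for each of the 10 genes. A library of 3 is often the highest or lowest of its group for any gene, and the share over all genes was not computed. Scrambled control replicate 3 and IFNγR1KO replicate 12 were both the highest of their group for 5 genes, Ccnd1, Ccnd2, Ccnd3, Cdk6 and Cdc25a. Both were the lowest for 4, Ccne1, Ccne2, Cdk4 and Cdk2. For Skp2 the lowest were scrambled control replicate 2 and IFNγR1KO replicate 12. Without scrambled control replicate 3 and IFNγR1KO replicate 12, the same number of genes, 6, was called lower and 1, Ccnd2, was called higher.

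The surroundings of these genes in the cycle were read from 4 lists, of which 35 of 39 genes passed the filter on low counts. Of the 35, 15 were lower and 1 was higher in IFNγR1KO cells, and their median was -0.47 on the log2 scale, beside 7.62% called lower, 7.73% called higher and a median of -0.00 over all genes tested. Among the CDK inhibitors, Cdkn1b, whose product p27 is the substrate of SKP2, rose. It went from 116 ± 17.0 to 216 ± 47.3 CPM (SD, n = 3), a log2 fold change of 0.90 (SE 0.18, edgeR adjusted p = 0.00476). Cdkn2c and Cdkn2d, which block CDK4 and CDK6, fell with log2 fold changes of -0.76 (SE 0.14, edgeR adjusted p = 0.00281) and -0.61 (SE 0.14, edgeR adjusted p = 0.0133). The call of Cdkn2d was lost without scrambled control replicate 2 (edgeR adjusted p = 0.0686) and without IFNγR1KO replicate 11 (edgeR adjusted p = 0.0754). Cdkn1a made no call, and Cdkn1c was too rare to test. Cdkn2a and Cdkn2b, which encode p16 with p19Arf and p15, had no count in any library, where 3 counts would be 0.290 to 0.426 CPM.

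Of 13 pocket proteins and E2F factors tested, 6 fell and none rose, beside 7.62% and 7.73% of all genes, with a median log2 fold change of -0.48. E2f2, an activating E2F, went from 26.4 ± 2.43 to 12.0 ± 2.02 CPM (SD, n = 3), a log2 fold change of -1.14 (SE 0.17, edgeR adjusted p = 0.00115). Tfdp1, the dimer partner of E2F proteins, fell with a log2 fold change of -0.82 (edgeR adjusted p = 0.00115). E2f1, another activating member, fell with one of -0.80 (edgeR adjusted p = 0.00340). The others that fell were E2f6, E2f8 and Rbl1, while Rb1, the retinoblastoma gene itself, had 21.8 ± 2.63 and 23.0 ± 4.08 CPM (SD, n = 3). None of the 13 was higher at an unadjusted p under 0.05 in edgeR, and DESeq2 and limma-voom called none higher.

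Of 13 regulators of cyclin-CDK activity and turnover, 2 fell and none rose, beside 7.62% and 7.73% of all genes, with a median log2 fold change of -0.21. Wee1, the kinase that places inhibitory phosphates on CDKs, had a log2 fold change of -1.06 (SE 0.19, edgeR adjusted p = 0.00285). Cks2, a small CDK-binding protein, had -0.83 (SE 0.21, edgeR adjusted p = 0.0195), and its call was lost without scrambled control replicate 1 or 2 or IFNγR1KO replicate 11 (edgeR adjusted p = 0.0698, 0.0890 and 0.0523). In edgeR 1 of the 13 was higher and 4 were lower at an unadjusted p under 0.05, and DESeq2 and limma-voom called none higher. All 5 tested cyclins and kinases of S and M phase fell, beside 7.62% of all genes, with a median of -0.86, and none rose in any of the 3 tools, also at an unadjusted p under 0.05. Ccnf had a log2 fold change of -0.95 (SE 0.14, edgeR adjusted p = 0.000804), Cdk1, the mitotic kinase, -1.05 (SE 0.16, edgeR adjusted p = 0.00127), and Ccna2, the S phase cyclin, -0.86 (SE 0.14, edgeR adjusted p = 0.00140). Ccnb1 and Ccnb2 were the others, and Ccna1 was too rare to test.

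**Figure D5:**
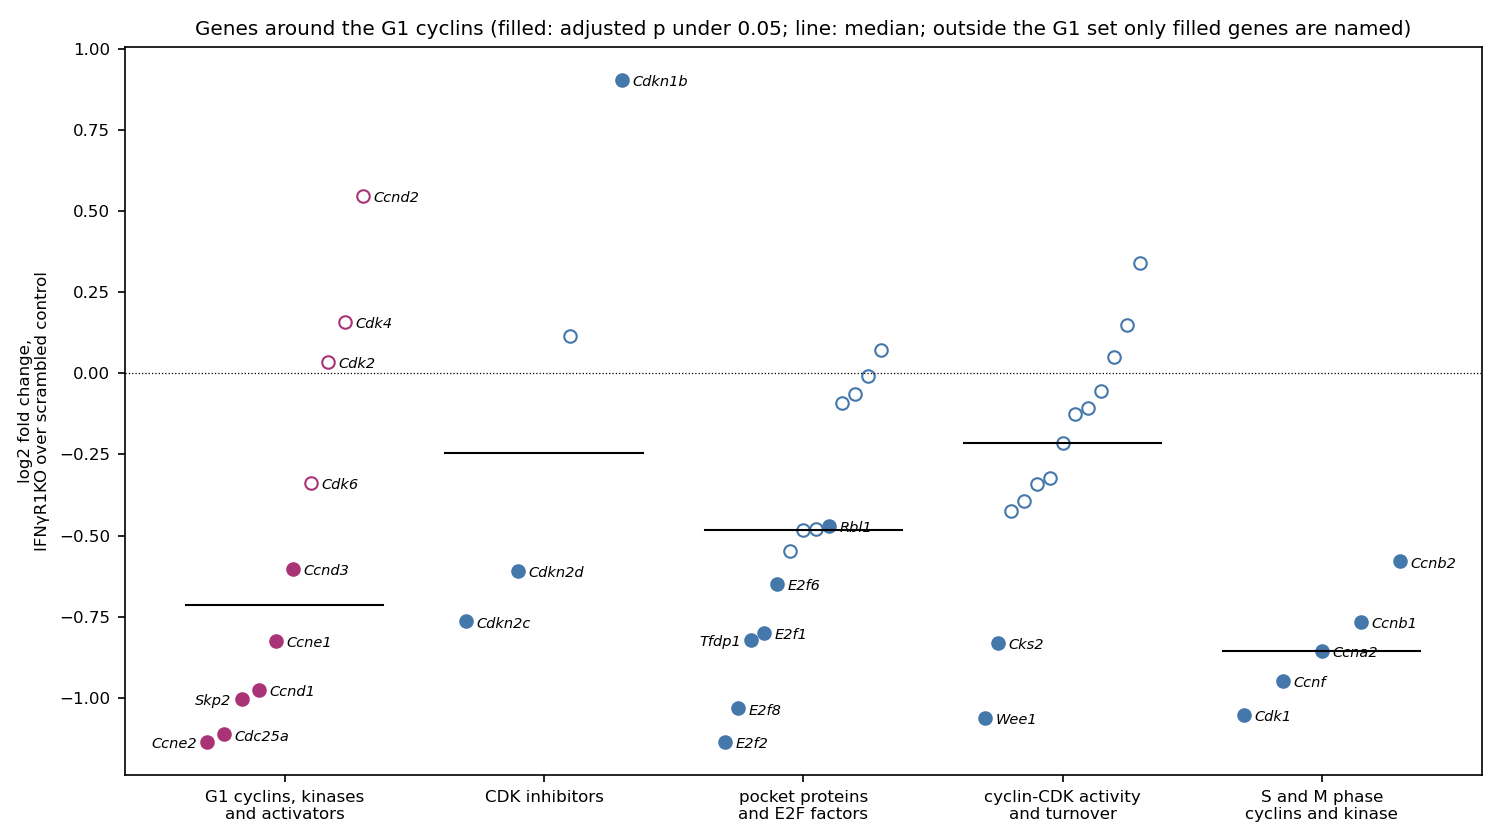
Log2 fold change of IFNγR1KO over scrambled control for the 10 genes and for the tested genes of the 4 lists around them, 1 point per gene, filled where the adjusted p from edgeR was under 0.05, with a line at the median of each list. The medians are -0.71 for the 10 genes, -0.25 for CDK inhibitors, -0.48 for pocket proteins and E2F factors, -0.21 for regulators and -0.86 for S and M phase genes, and Cdkn1b is the filled point above 0.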

How the data were processed

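RNA of 3 scrambled control and 3 IFNγR1KO cultures of B16-BL6 cells was sequenced with paired-end reads after poly(A) selection. Alignment to GRCm38 was done by the authors with STAR 2.7.5a, and the deposited tables, 1 per library, hold unnormalized read counts per gene made by htseq-count (HTSeq 0.11.2). The annotation release and strand setting of the counting are not given in the sources used here. Lines of the tables that name no gene held 53.0% to 54.0% of the reads listed and were left out. Of the reads listed, 46.9% to 47.7% were on no feature and 1.57% to 1.85% were ambiguous, and the part of the strand setting in this was not tested.

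Symbols and exon lengths came from GENCODE M21 (55154 of 55335 IDs matched without their version). An exon length is that of the merged exons of all transcripts of a gene. In R 4.3.3, edgeR 4.0.16 (filterByExpr with a minimum count of 10, TMM factors, quasi-likelihood test, Benjamini-Hochberg adjustment over all 13642 genes tested) compared the groups, and every adjusted p is from this test unless another is named. Calls had an adjusted p under 0.05, and DEGs also an absolute log2 fold change above 1. Ratios and shares used a two-sided exact permutation test over libraries. DESeq2 1.42.0, limma-voom (limma 3.58.1), other scalings and filters, and leaving out each library were alternatives.

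The 10 genes, the lists and the motifs were chosen with earlier results of these data known. Beside the 10 genes, Ifngr1, from each list at most 3 called genes in each direction, those of smallest adjusted p, and genes whose exons overlap those of the 10 are given with values. Other list genes and markers that are named, among them Cdkn1a, Rb1 and Col1a1, were chosen after their values were seen. One marker gene of the lists was left out of its list and its sum and is not reported here.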

Additional observations from a re-analysis of the deposited data

How the results depend on the processing

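Ccnd1, Ccne1, Ccne2, Cdc25a and Skp2 were called lower under all 14 alternatives that change the fit or the libraries, Ccnd3 under 9 of them and Ccnd2 higher under 7, with an adjusted p of Ccnd2 between 0.000157 and 0.196. Cdk4, Cdk6 and Cdk2 were called under none. The number of the 10 genes called higher was 1, Ccnd2, in place of 0 with DESeq2's Wald test, limma-voom, upper-quartile factors, no filter on low counts and a minimum count of 50, and it ranged from 0 to 1 when 1 library was left out, being 1 without scrambled control replicate 3. It was also 1 without scrambled control replicate 3 and IFNγR1KO replicate 12 together, an alternative chosen after seeing the data. The number called lower was 5 or 6 throughout, and that below -1 was 2 to 4. The log2 fold change of Cdk2 ranged from -0.025 to 0.10 when 1 library was left out. It was -0.023 without scrambled control replicate 3 and -0.025 without IFNγR1KO replicate 10.

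CDK inhibitors called lower were 1 at an adjusted p under 0.01, and 1 to 2 when 1 library was left out. Regulators called lower were 1 at an adjusted p under 0.01, 1 to 2 when 1 library was left out and 4 without both libraries that stood apart, and those called higher were 0 to 1, being 1 without IFNγR1KO replicate 12, and 1 without both. Pocket proteins and E2F factors called lower ranged from 5 to 6 and S and M phase genes from 4 to 5 when 1 library was left out. Over all genes, total counts with no factor gave 1174 higher and 755 lower calls in place of 1054 and 1039. Without single libraries the calls over all genes numbered 1028 to 2824. No paired analysis was possible because the groups share no replicate numbers. The cause of these changes was not tested. Counts of 30 to 97 limit what can be said of Cdk6.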
